A study of Mus musculus with 4 samples.

Results

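The genes described here are those of the MHC class I molecule and the machinery that supplies it with peptides. They are B2m, H2-K1, H2-D1, H2-Q5 (a transcribed pseudogene in RefSeq), Tap1, Tap2, Tapbp, Psmb8, Psmb9 and Psmb10. They were followed through every probe set of the Affymetrix mouse array that its annotation gives to one of these 10 symbols alone, which makes 28 of 45037 probe sets. Of the 28, 21 passed a filter on dim probe sets, and all 10 genes kept at least 1 of theirs, so 10 of the 10211 genes measured are described.

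The RNA is from naive CD4 T cells of mice 10 to 11 weeks old, taken by sorting for CD4+ CD62L+ CD44- cells. The arrays labelled knockout are from CD4-cre fur flox/flox mice, in which a Cre recombinase under the CD4 promoter deletes furin, a protease that cuts precursor proteins, in T cells. The arrays labelled wild type are from fur flox/flox littermates without Cre, so both groups carry the floxed allele. Each group had 2 arrays, numbered 1 and 2 in the labels, so precision is low throughout. Whether the 2 arrays hold RNA of separate animals is not stated, and p-values then measure only the spread between these arrays, which may be technical.

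Class I molecules stand on nearly all nucleated cells and show peptides from inside the cell to CD8 T cells. A heavy chain pairs with beta-2-microglobulin, and the peptide is cut by the proteasome, pumped into the endoplasmic reticulum by the TAP transporter and loaded with the help of tapasin. Interferons are known to raise the whole set and to swap the catalytic subunits of the proteasome for those of the immunoproteasome, which lymphocytes also hold at rest.

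Values are MAS5 signals, a linear measure of brightness per probe set. Levels and differences are on the log2(signal + 15.3) scale, where 15.3 is the 25% quantile of all signals, and a difference is knockout minus wild type. The scale understates the change of dim probe sets. The arrays differed by their number: the bacterial hybridisation controls of those numbered 2 exceeded those numbered 1 by 6.25-fold in wild type and 6.09-fold in knockout, and their brightest probe set by 4.52-fold and 4.78-fold. The Gapdh ratio of 3' to 5' probe sets, a sign of RNA quality and labelling, split them the same way, at 4.09 and 3.35 on wild-type and knockout arrays numbered 1 and at 0.91 and 0.93 on those numbered 2; its part in the results was not tested. Differences are therefore also given within each number. Furin itself, by its 1 probe set, was at 435 and 344 in wild-type arrays 1 and 2 and at 391 and 447 in the arrays labelled knockout; where it lies relative to the deleted part was not given, so it checks nothing.

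Markers of T cells gave bright signals: Cd3d, a chain of the T cell receptor complex, had 9725 and 42640 in wild-type arrays 1 and 2, and Il7r, the interleukin 7 receptor, had 18091 and 19445. In knockout Cd3d had 10551 and 42143, a difference of 0.05, and Il7r had 15154 and 15939, both below both wild-type arrays, a difference of -0.27. Signals below are given in that order, array 1 and then array 2 of each group.

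In the knockout-labelled arrays, 7 of the 10 genes were higher within both array numbers by their brightest probe set, and 3 (B2m, H2-K1 and H2-D1) were lower within both. Higher within both were 27.7% of all 10211 genes measured, and lower within both were 27.2%. The median difference of the 10 genes was 0.40 (0.20 within arrays numbered 1 and 0.31 within arrays numbered 2), against -0.002 over all genes. With one array left out, which mixes genotype with array number, it was -0.077 without wild-type array 1, 0.76 without wild-type array 2, 0.80 without knockout array 1 and -0.088 without knockout array 2. Counted by probe set, 13 of 21 were higher within both numbers, against a background of 25.3%, 4 were lower within both, against 30.1%, and 4 were split. In 5 of the 21 both knockout arrays lay above both wild-type arrays, against 7.62% of all probe sets, and in 0 both lay below, against 9.54%.

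None of these differences passed the reported test over the whole array. Fitted with limma and no block, 0 of 22518 probe sets (0%) had a Benjamini-Hochberg adjusted p under 0.05, with 145 (0.644%) at an unadjusted p under 0.05. Among the members 0 were called and 1, H2-Q5, had an unadjusted p under 0.05. With the array number as a block, limma called 6 probe sets (0.0266%) and 0 members. At an unadjusted p under 0.05 in that fit 6 members were higher, against 3.78% of all probe sets, and their smallest limma adjusted p was 0.476. A trended prior added to the block brought the calls to 260 (1.15%), of which 179 (0.795%) were higher and 2 were members, H2-Q5 (adjusted p = 0.00226) and Psmb9 (adjusted p = 0.0179). The block leaves 1 residual degree of freedom per probe set, so p-values with it lean on a variance prior over all kept probe sets. The verbs below therefore describe measured values, not called changes.

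**Figure D1:**
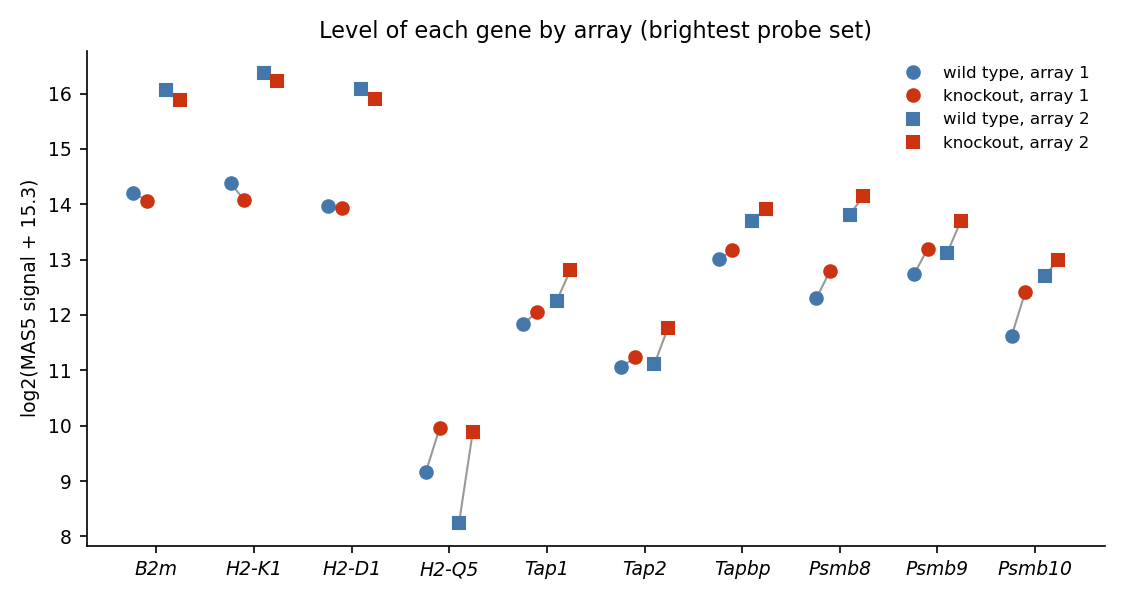
Level of the brightest probe set of each gene on each of the 4 arrays, as log2(MAS5 signal + 15.3); circles are arrays numbered 1, squares arrays numbered 2, and grey lines join the wild-type and knockout arrays of one number. B2m, H2-K1 and H2-D1 are slightly lower in the knockout array of each number, and the other 7 genes are higher in it.

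By the brightest probe set, the invariant light chain and the classical heavy chains were not higher, although further probe sets of both heavy chains were. The brightest probe sets of B2m, H2-K1 and H2-D1 ranked between 60 and 199 of 45037 on every array. Whether signals so near the top of the range understate a rise was not tested. B2m encodes beta-2-microglobulin, the light chain that every class I heavy chain needs to reach the surface. Its brightest probe set had signals of 18935 and 68995 in wild-type arrays 1 and 2 and of 17163 and 60127 in knockout arrays 1 and 2. Both arrays numbered 1 were low and both numbered 2 high, 3.64-fold apart in wild type and 3.50-fold in knockout, so the groups overlap. The B2m difference was -0.17 (SE 0.90 without the block and 0.19 with it), or -0.14 and -0.20 within the numbers. With the block its 95% interval ran from -0.64 to 0.30. Its other probe set gave 0.01 (-0.06 and 0.07 within the numbers).

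H2-K1 is the K heavy chain, one of the classical class I molecules that present peptide to CD8 T cells. Its brightest probe set had signals of 21353 and 84587 in wild type and 17226 and 76460 in knockout, a difference of -0.23 (SE 0.995 without the block, 0.19 with it, 95% interval with the block -0.70 to 0.25). H2-D1 is the D heavy chain, the other main classical molecule. By its brightest probe set it had 16007 and 69509 in wild type and 15554 and 60945 in knockout, a difference of -0.12 (SE 0.98 without the block, 0.19 with it, 95% interval with the block -0.59 to 0.36). The direction of H2-D1 did not hold under another scaling, since quantile normalization put it at 0.007, and with the mean of their kept probe sets H2-K1 and H2-D1 were at 0.05 and 0.09.

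The probe sets of the heavy chains disagreed with each other. H2-K1 has 4, all kept, with differences from -0.23 to 0.58, and H2-D1 has 9, of which the 6 kept ran from -0.14 to 0.49. The probe set of H2-K1 at 0.58 had signals of 1385 and 2219 in wild type and 2106 and 3280 in knockout, 0.60 and 0.56 within the numbers. That of H2-D1 at 0.49 had 1000 and 1358 in wild type and 1515 and 1777 in knockout, with both knockout arrays above both wild-type arrays. Both are dimmer than the other kept probe sets of their gene, except 1 of H2-D1, near the filter limit, at -0.07.

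The suffix of a probe set tells how specific it is: the kind ending in _x_at holds probes that may also bind related transcripts, which is common in the class I family. Of the 10 kept members of that kind, all of heavy chains but 1 of Psmb8, 4 were higher within both numbers, against 36.6% of all kept probe sets of the kind. Of the other 11, 9 were higher within both, against 24.5%. The only kept H2-D1 probe set without the suffix was at 0.21 (0.17 and 0.26 within the numbers), with signals of 8592 and 6218 in wild type and 9672 and 7439 in knockout. The sign for H2-D1 thus turned with the choice of probe set, and signals of near-identical heavy chains are uncertain in any case.

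**Figure D2:**
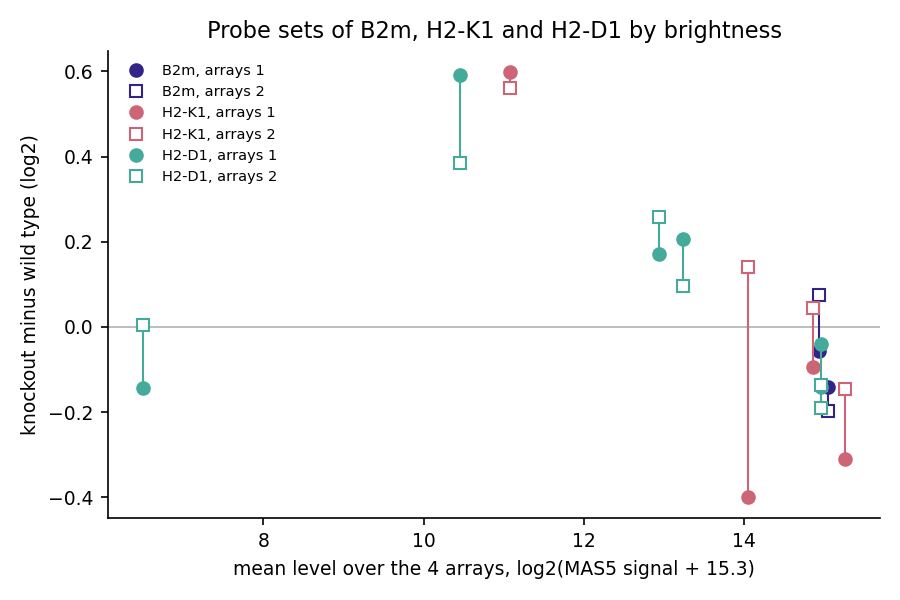
Knockout minus wild-type difference (log2) of each kept probe set of B2m, H2-K1 and H2-D1 against its mean level over the 4 arrays, as log2(MAS5 signal + 15.3); filled circles are arrays numbered 1 and open squares arrays numbered 2, joined by a line. The brightest probe set of each gene lies below 0, and 1 dimmer probe set each of H2-K1 and H2-D1 lies near 0.5.

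The RefSeq promoter table (build GRCm38.p6) held 8 of the 10 genes; Tap2 and H2-Q5 were not among them. The 250 bases before each start were searched on both strands for 3 spelled motifs: GAAA, any 2 bases and GAAA, the core of the interferon-stimulated response element; TTC, any 3 bases and GAA, the gamma-activated sequence bound by STAT dimers; and GGG, any 2 bases and TTCCC, a kappaB site. No match overlapped another. They are held by 2.98%, 7.02% and 1.53% of the 32851 promoters in the table. The windows of B2m and H2-D1, the light chain and a heavy chain whose brightest probe sets were not higher, are printed here with matches in capitals.

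B2m, chr2:122147437-122147686, plus strand: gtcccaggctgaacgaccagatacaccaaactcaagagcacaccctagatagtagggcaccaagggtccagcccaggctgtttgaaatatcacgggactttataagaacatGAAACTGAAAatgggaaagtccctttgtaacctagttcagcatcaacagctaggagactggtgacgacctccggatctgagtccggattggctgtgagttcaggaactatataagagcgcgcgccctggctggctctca
H2-D1, chr17:35262844-35263093, plus strand: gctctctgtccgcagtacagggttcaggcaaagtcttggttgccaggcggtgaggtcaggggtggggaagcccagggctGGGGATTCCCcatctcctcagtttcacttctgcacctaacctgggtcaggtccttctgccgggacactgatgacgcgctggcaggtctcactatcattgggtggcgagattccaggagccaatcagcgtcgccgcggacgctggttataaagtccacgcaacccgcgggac

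The capitals mark the response element core in B2m, at -139 to -130 from the start, and the kappaB letters in H2-D1, at -171 to -162. The H2-K1 window holds the same kappaB letters at -111 to -102, inside a run of 47 bases that it shares with H2-D1. These matches are letters in a window and say nothing of binding in these cells.

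H2-Q5 stood apart from the classical chains. It belongs to the Q region of the mouse MHC, which encodes Qa-type class I molecules, and RefSeq lists it as a transcribed pseudogene. Its signals were 558 and 287 in wild type and 973 and 927 in knockout, so both knockout arrays lay above both wild-type arrays. The difference was 1.21, or 2.32-fold (SE 0.44 without the block, 0.26 with it), with 0.79 and 1.64 within the numbers. Its limma adjusted p was 0.99999 without the block, 0.476 with it and 0.00226 once the prior was trended too. The other H2-Q5 probe set was not above 8.4 on any array and was not kept.

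Probe sets shared by several Q genes lie outside the choice of members and were looked at after the H2-Q5 value was seen. The probe set given to both H2-Q6 and H2-Q8 had signals of 12527 and 9325 in wild type and 16048 and 21722 in knockout, a difference of 0.79 (0.36 and 1.22 within the numbers). The one given to H2-Q4, H2-Q6 and H2-Q8 differed by 0.78 (0.55 and 1.01), and the one given to H2-Q7 and H2-Q9 by 0.12 (-0.04 and 0.29). With the block and trended prior, the limma adjusted p-values of these probe sets were, in the same order, 0.000929, 0.0121 and 0.739. Transcripts of this region are similar, so the signal of H2-Q5 cannot be told apart here from that of its neighbours. The probe set given to both H2-Q5 and H2-K1 differed by -0.47 (0.12 and -1.06), opposite in sign to H2-Q5. Its signals were 307 and 202 in wild type and 335 and 89 in knockout. The one given to H2-K1 and H2-D1 differed by -0.006 (-0.08 and 0.07). Of the 7 kept class I probe sets with several symbols that name no member, 6 were higher within both numbers, against 25.3% of all kept probe sets. Each of these 6 shares symbols with another of them, so they are not 6 separate measurements. Among these, the ones given to H2-T23 and H2-T-ps differed by 0.49 and 0.36. Those given to H2-T9, H2-T10 and H2-T22 differed by 0.41 and 0.32.

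The transport and loading genes were all higher within both numbers, with a median of 0.38. Tap1 and Tap2 encode the paired chains of the transporter that carries cytosolic peptides into the endoplasmic reticulum. Tap1 had signals of 3660 and 4871 in wild type and 4239 and 7162 in knockout. The knockout array was the higher of each number, but the groups overlap, since knockout array 1 lies below wild-type array 2. The difference was 0.38, or 1.30-fold (SE 0.42 without the block, 0.20 with it; 0.21 and 0.55 within the numbers), with a 95% interval of -0.12 to 0.89 with the block. The 3 other probe sets of Tap1 were at 78 or lower on all arrays and were not kept.

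Tap2 had 2109 and 2197 in wild type and 2391 and 3462 in knockout. Both knockout arrays lay above both wild-type arrays, with knockout array 2 well above the other 3. The Tap2 difference was 0.42, or 1.33-fold (SE 0.36 without the block, 0.21 with it; 0.18 and 0.65 within the numbers). Tapbp encodes tapasin, which bridges the transporter and the heavy chain during loading. Its brighter probe set had 8198 and 13235 in wild type and 9183 and 15446 in knockout, a difference of 0.19 (SE 0.46 without the block, 0.19 with it; 0.16 and 0.22 within the numbers), and its other one differed by 0.35 (0.23 and 0.48). Tapbp was thus the least different of the transport and loading genes by its brightest probe set.

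The immunoproteasome subunits lay close together only on the mean of both numbers, with differences of 0.41, 0.52 and 0.54 by the brightest probe set. Within arrays numbered 1 they ran from 0.46 to 0.79 (median 0.50), and within arrays numbered 2 from 0.29 to 0.58 (median 0.33). Psmb8 (LMP7) had signals of 5034 and 14349 in wild type and 7101 and 18090 in knockout. The groups overlap across numbers, although the knockout array was higher within each. The difference was 0.41, or 1.33-fold (SE 0.72 without the block, 0.19 with it; 0.50 and 0.33 within the numbers). Its second probe set, of the _x_at kind, had 360 and 441 in wild type and 740 and 542 in knockout, a difference of 0.65 with no overlap (1.01 and 0.29 within the numbers).

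Psmb9 (LMP2) had 6789 and 8895 in wild type and 9362 and 13291 in knockout. Both knockout arrays lay above both wild-type arrays. The difference was 0.52, or 1.43-fold (SE 0.38 without the block, 0.19 with it; 0.46 and 0.58 within the numbers), with a 95% interval of 0.05 to 0.99 with the block. Its limma adjusted p was 0.99999 without the block, 0.574 with it and 0.0179 once the prior was trended too. Psmb10 (MECL-1) had 3140 and 6687 in wild type and 5443 and 8185 in knockout, so the groups overlap. Its difference was 0.54, or 1.45-fold (SE 0.51 without the block, 0.22 with it), and was larger within arrays numbered 1, at 0.79, than within arrays numbered 2, at 0.29.

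**Figure D3:**
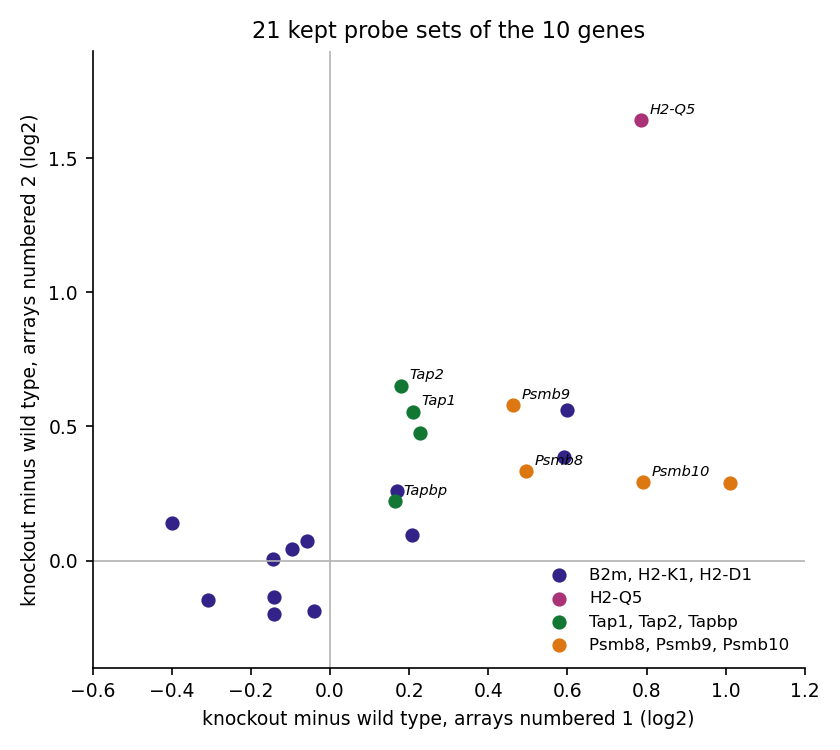
Knockout minus wild-type difference (log2) of the 21 kept probe sets within arrays numbered 1 (horizontal axis) and within arrays numbered 2 (vertical axis), coloured by role; names mark the brightest probe set of H2-Q5 and of each transport, loading and immunoproteasome gene. All 9 probe sets of H2-Q5, Tap1, Tap2, Tapbp and the Psmb genes lie above 0 on both axes, whereas those of B2m, H2-K1 and H2-D1 lie on both sides of 0.

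Psmb9 and Tap1 are neighbours in the MHC region that are read in opposite directions from starts 225 bases apart. The sequence between the starts is shown because both genes, at 0.52 and 0.38, were higher within both numbers, and that of Psmb8 because it holds the only gamma-activated sequence match among the 8 genes, in capitals.

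Psmb9-Tap1, chr17:34187331-34187555, plus strand: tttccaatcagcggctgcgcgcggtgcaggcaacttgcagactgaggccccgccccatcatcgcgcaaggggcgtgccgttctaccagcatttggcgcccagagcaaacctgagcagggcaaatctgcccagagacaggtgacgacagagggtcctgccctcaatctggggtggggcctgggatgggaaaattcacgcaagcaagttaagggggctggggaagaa
Psmb8, chr17:34197945-34198194, plus strand: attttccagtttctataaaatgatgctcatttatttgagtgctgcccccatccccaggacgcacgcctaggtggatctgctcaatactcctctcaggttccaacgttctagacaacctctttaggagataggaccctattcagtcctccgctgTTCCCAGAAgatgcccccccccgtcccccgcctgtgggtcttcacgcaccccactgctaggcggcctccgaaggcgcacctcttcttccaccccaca

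The Psmb8 match lies at -97 to -89 from the start. The Psmb9-Tap1 region and the windows of Tapbp and Psmb10 held none of the 3 motifs as spelled.

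Each immunoproteasome subunit takes the place of a constitutive one, Psmb8 of Psmb5, Psmb9 of Psmb6 and Psmb10 of Psmb7. None of the 3 constitutive subunits had the same sign within both numbers: Psmb5 differed by 0.07 (-0.05 and 0.20), Psmb6 by 0.10 (0.27 and -0.08) and Psmb7 by -0.18 (-0.40 and 0.05). The log2 ratio of each immunoproteasome subunit to its counterpart within an array, on which one scaling factor per array has almost no bearing, was higher in the knockout array of both numbers for all 3. For Psmb8 over Psmb5 the knockout excess was 0.55 and 0.14 within arrays numbered 1 and 2, for Psmb9 over Psmb6 0.19 and 0.66, and for Psmb10 over Psmb7 1.19 and 0.24. The log2 ratio of Psmb8 to Psmb5 itself was 0.02 and 1.94 in wild type and 0.57 and 2.08 in knockout. It thus still differed by array number, and its groups overlap. That of Psmb9 to Psmb6 was 0.90 and 0.72 in wild type and 1.09 and 1.38 in knockout. That of Psmb10 to Psmb7 was -0.75 and 0.12 in wild type and 0.45 and 0.36 in knockout. With 2 arrays a group no exact permutation test can go below p = 0.333, so these ratios were not tested, and they show unequal differences, not that either subunit stayed the same.

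**Figure D4:**
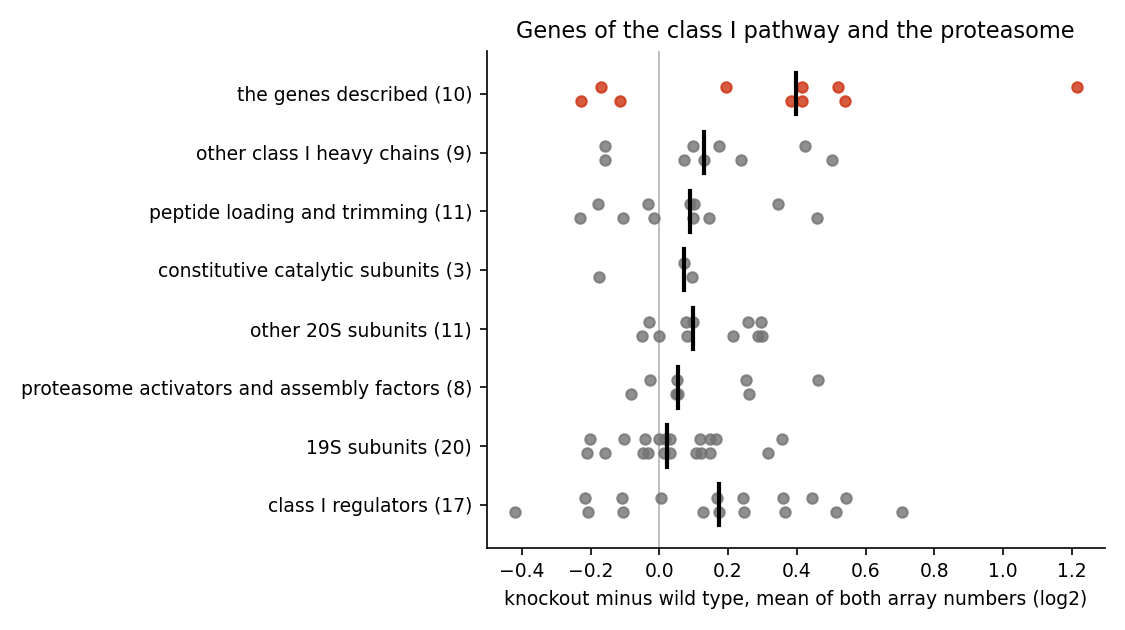
Knockout minus wild-type difference (log2, mean of both array numbers) of each gene, by its brightest probe set, for the genes described and for 7 further lists of the class I pathway and the proteasome, with the number of measured genes in brackets; black bars are medians. The median is 0.40 for the genes described and between 0.02 and 0.17 for the other lists.

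The other lists of the pathway had smaller medians. Their counts, and those of the marker lists further below, stand beside 27.7% of all genes higher within both numbers and 27.2% lower. Of 24 other class I and class I-like heavy chains listed, 9 were measured by a kept probe set of their own. Within both numbers 4 of the 9 were higher and 1 was lower (median 0.13). The shared probe sets of Q and T genes given above do not enter this median. H2-T3 differed by 0.50, H2-Bl by 0.42 and H2-M3, which presents formylated peptides, by 0.24. H2-T3, of the _x_at kind, was dim, at 47 and 65 in wild type and 72 and 100 in knockout. H2-Bl was not above 180.5 on any array. Of 11 loading and trimming genes, 4 were higher and 2 lower (median 0.09). Tapbpl, a tapasin-related peptide editor, differed by 0.46 with both knockout arrays above both wild-type arrays, Lap3, a cytosolic aminopeptidase, by 0.35 and Npepps, another, by -0.23.

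The rest of the proteasome was measured by 3 lists. Of 11 other subunits of the 20S core, 7 were higher and 1 lower within both numbers (median 0.10), with Psmb2 and Psma2 at 0.30 and Psma7 at 0.29. Of 8 activators and assembly factors, 3 were higher and 1 lower (median 0.05); Psme1, a subunit of the interferon-inducible activator PA28, differed by 0.26, Psmg4, an assembly chaperone, by 0.46 and Psmg1, another, by -0.08. Of 20 subunits of the 19S cap, 6 were higher and 3 lower (median 0.02), with Psmd9 at 0.36, Psmd13 at -0.20 and Psmd10 at 0.16. Limma called 0 genes of these lists in any of the 3 fits.

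Among regulators of class I transcription and interferon signalling, 11 of 17 genes were higher and 3 lower within both numbers (median 0.17), and in 6 both knockout arrays lay above both wild-type arrays, against 8.69% of all genes. Nlrc5, the transactivator of class I genes, had signals of 4900 and 5887 in wild type and 6791 and 7870 in knockout, a difference of 0.44 (0.47 and 0.42 within the numbers). Irf1, a transcription factor induced by interferon gamma, had 8051 and 5903 in wild type and 10036 and 10081 in knockout. It differed by 0.54 (0.32 and 0.77) and was the only one of the 17 called by limma under the block and trended prior (adjusted p = 0.0243), with 0 called in the other fits. Stat2, which transmits type I interferon signals, differed by 0.71 (0.61 and 0.81) and Ifngr1, a chain of the interferon gamma receptor, by 0.51 (0.41 and 0.62). Rfxank, a subunit of the RFX complex that binds class I and class II promoters, lay the other way at -0.42 (-0.41 and -0.43), and is named after its value was seen.

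Class I and immunoproteasome genes are also expressed by other blood cells, and markers of some of these were higher in the knockout-labelled arrays. Of 9 measured B cell and MHC class II markers, 8 were higher within both numbers (median 0.91, 0.20 and 1.63 within the numbers), and their summed signal was 1197 and 5073 in wild type and 1721 and 17819 in knockout. Of 11 myeloid markers 10 were higher (median 1.46, 0.99 and 2.08), with sums of 1532 and 4363 in wild type and 2264 and 14937 in knockout. The T cell markers had a median of -0.04 (0 of 10 higher and 4 lower within both numbers, sums of 81398 and 150159 in wild type and 76886 and 142568 in knockout), and the CD8 T and NK cell markers 0.07 (3 of 6 higher and 1 lower, sums of 3749 and 3425 and of 4227 and 3767). The differences were 1.54 for Cd74 and 1.37 for H2-Aa of the B cell list, 2.53 for Ngp, 2.50 for S100a8, 0.37 for Cst3 and -0.02 for Lst1 of the myeloid list, and 1.78 for Gzma, 1.22 for Nkg7, -0.03 for Klrd1 and -0.24 for Prf1 of the last list. Ccr7 of the T cell list was at -0.29. Both knockout arrays lay above both wild-type arrays in 3 of the 11 myeloid and 0 of the 9 B cell markers. The same held for 2 of the 6 CD8 T and NK cell and 0 of the 10 T cell markers, against 8.69% of all genes. Under the block and trended prior limma called 113 of all 10211 genes, 96 of them higher. Among the markers it called 5 of the myeloid, 2 of the B cell, 2 of the CD8 T and NK cell and 0 of the T cell lists, all higher. Adjusted p-values of these markers in that limma fit included 1.2e-05 for S100a8, 0.00014 for Cd74 and 0.00015 for Gzma, each smaller than that of H2-Q5 or Psmb9. Without the block, or with the block alone, 0 markers were called. No kept marker was at 0 on any array, while Pax5, Itgam, Cd14, Ncr1 and Gzmb were too dim to be kept.

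Within arrays numbered 1 and 2 the members' medians were 0.18 and 0.55 for transport and loading, 0.50 and 0.33 for the immunoproteasome, and 0.20 and 0.31 for all 10 genes, while H2-Q5 was at 0.79 and 1.64. In bulk RNA more cells of a type and more RNA per cell cannot be told apart, and the part of these other cells in the differences was not tested.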

How the data were processed

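Biotinylated cRNA was made from 5 micrograms of total RNA, extracted with Trizol, per the labels' protocols. The deposited intensities are MAS5 signals, 1 per probe set, per the submitters' processing notes, with settings not given. Every array has the same trimmed mean, 500.003 (2% trimmed at each end), and no detection calls were used.

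Of 45101 probe sets, 64 controls were left out. Those with a mean log2(signal + 15.3) above the median of such means, 6.24, were kept (22518), and the brightest stood for its gene. Symbols are from the platform annotation, updated through RefSeq (GRCm38.p6) where matched; 34945 probe sets had 1 symbol, 932 several and 9160 none. Tests are two-sided and moderated, from lmFit and eBayes of limma 3.58.1 under R 4.3.3, with Benjamini-Hochberg adjustment over all kept probe sets; the script was tested on simulated data.

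The reported fit has no block. The labels name no shared animal or day behind array numbers, but same-numbered arrays deviated together (correlation 0.80), and the median residual SD was 0.408 without and 0.149 with the block. Alternatives covered the pseudocount, filter, scaling, block, prior and each array left out.

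The genes and lists were chosen with earlier results of these data known. Named are all members, the constitutive subunits, Nlrc5 and Irf1, the 3 genes of each other list with the largest difference of one sign within both numbers, and the 2 brightest and 2 most different of each marker list. One further gene of that rule is not reported here.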

Additional observations from a re-analysis of the deposited data

How the results depend on the processing

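Without the block limma called 0 probe sets; with the replicate block it called 6, also with quantile normalization, 19 with median centring and 260, of them 2 members, with a trended prior. The member probe sets higher within both numbers were 9 to 14 over the alternatives, which differ in how many probe sets they hold. The 9 were of 11 without the _x_at probe sets, and with no filter 14 of 28 were higher. Those not overlapping were 8 of 21 with median centring, 3 of 11 without the _x_at probe sets (chosen after seeing the data) and 6 to 15 of 21 with an array left out. The H2-D1 difference reversed to 0.0068 under quantile normalization, with or without the replicate block, to 0.088 with the mean of kept probe sets and to 0.21 without _x_at, and H2-K1 to 0.049 with the mean of kept probe sets. Other class I heavy chains had a median of 0.17 with no filter, with quantile normalization and with the mean of probe sets, and 0.040 above the 75th percentile; class I regulators had 0.13 with the mean of probe sets. Activators turned to -0.029 with the mean of probe sets and CD8 T and NK cell markers to -0.027 above the 75th percentile, where loading and trimming had 0.037; the myeloid median was 0.95 with the pseudocount at the median signal.

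Leaving out an array mixes genotype with array number, and the lone array is assumed to vary like the other group. The median of the 10 genes then ran from -0.088 (without knockout array 2) to 0.80 (without knockout array 1). Single genes ran from -1.10 to 0.76 for B2m, -1.30 to 0.85 for H2-K1, -1.17 to 0.94 for H2-D1, -0.18 to 0.57 for Tapbp, -0.34 to 1.17 for Psmb8 and -0.0026 to 1.08 for Psmb10; those of H2-Q5 (0.75 to 1.68), Tap1 (0.006 to 0.76), Tap2 (0.15 to 0.68) and Psmb9 (0.27 to 0.77) stayed above 0. List medians ran from 0.12 to 0.43 for other heavy chains, 0.014 to 0.12 for loading and trimming, -0.19 to 0.16 for constitutive subunits, -0.079 to 0.42 for other 20S subunits, -0.15 to 0.42 for activators, 0.020 to 0.15 for 19S subunits, 0.21 to 0.31 for regulators, -0.47 to 0.31 for T cell, -0.87 to 2.71 for B cell, 0.15 to 2.70 for myeloid and 0.15 to 0.45 for CD8 T and NK cell markers. For the settings above the cause was not tested.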
